A study of Mus musculus with 4 samples.

Results

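The genes described here encode the collagens, laminins and integrins of the mouse, together with a set of other proteins of the extracellular matrix, as Ribo-seq counted them in sorted leptotene/zygotene spermatocytes. They were chosen by name alone. A gene was taken if its symbol began as a collagen chain (*Col*), a laminin chain (*Lama*, *Lamb*, *Lamc*) or an integrin chain (*Itga*, *Itgb*), or if it was one of 16 named matrix genes, among them *Fn1*, *Sparc*, *Hspg2* and *Cd44*. Of the 11598 genes in the table, 77 matched, 62 by the name patterns and 15 by the named set, in which *Lum* had no row. The collagens made up 33 of the 77, with 9 fibrillar chains, 7 chains of basement membranes and 17 others. There were 10 laminin chains, 10 integrin alpha and 6 integrin beta chains, 9 matrix glycoproteins or proteoglycans, and 6 proteases, protease inhibitors or hyaluronan receptors. The remaining 3, *Col4a3bp*, *Itgb1bp1* and *Itgb3bp*, share a name with a chain but are neither collagens nor integrins.

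Collagens are trimers whose chains wind around each other as a triple helix. Fibrillar collagens form the fibres of connective tissue, and type IV collagen forms the sheet of the basement membrane together with laminin trimers, nidogens and perlecan. Integrins are pairs of an alpha and a beta chain that span the cell membrane and hold the cell to fibronectin, laminin or collagen. In the testis, Sertoli cells and peritubular myoid cells lay down the basement membrane around the seminiferous tubule, and germ cells lie inside it.

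Both genotypes of males, at 12 dpp (days post partum), were compared, with 2 libraries each. The *Eef1g*-cKO mice carried a floxed allele of *Eef1g*, a subunit of a translation elongation factor complex, made on a C57BL/6J background, and *Stra8*-GFPCre deleted it in germ cells. This Cre acts from the spermatogonial stage, so somatic cells of the testis keep the gene. The controls were littermates that the sample labels call wild type, and the sources used here do not say whether they carried the floxed allele or the Cre. Testes were digested with collagenase, hyaluronidase, trypsin and DNase, the cells were stained with Hoechst dye, and the spermatocytes were sorted by FACS. The number of mice behind a library is not given, and p-values measure only the spread between these libraries.

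Depth sets what can be said of these genes. The reads counted on genes came to 2479504 in control 1, 1384282 in control 2, 223906 in *Eef1g*-cKO 1 and 407979 in *Eef1g*-cKO 2. On a gene of 5 kb, 1 read was worth 0.0807 and 0.144 FPKM (reads of a gene per 1000000 counted, or RPM, divided by its length in kilobases) in the controls and 0.893 and 0.490 FPKM in *Eef1g*-cKO. *Eef1g* itself had 107 and 58 reads in the controls and 0 and 4 in *Eef1g*-cKO (log2 fold change -3.39, standard error 0.91, limma adjusted p = 0.0731). Of 16 listed markers of leptotene and zygotene cells, 15 were in the table, at a summed 6602 to 7204 RPM in the controls and 15702 to 16757 in *Eef1g*-cKO. A read count here depends on how much of an RNA was present and on how often it was being translated, and in such bulk libraries fewer cells of a type and less RNA per cell cannot be told apart. Intervals of read ratios below are exact 95% intervals for counting error only. They take each read as independent, which copies made by PCR are not, so they can be too narrow. The 95% limits of log2 fold changes come from limma.

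The coding sequence of a collagen is built from a short repeat, and 4 stretches of it are printed because they come from chains that lay on either side of 0 in the comparison. The triple helix needs glycine as the first residue of each triplet, and in 30 of the 33 collagen genes here at least 1 coding exon had 54 bases that spell 6 triplets starting with glycine. Such exons numbered 21 in *Col1a1*, 23 in *Col1a2*, 24 in *Col3a1* and 31 in *Col11a2*, but 2 in *Col4a1*. Printed here, from the RefSeq annotation of GRCm38.p6, is the exon with most proline codons in each chain, the first of those that tied in *Col1a2* and *Col11a2*, with the 6 glycine codons in capitals. They are exon 9 of *Col1a1* at chr11:94940118-94940171, exon 16 of *Col1a2* at chr6:4519292-4519345, exon 6 of *Col3a1* at chr1:45325360-45325413 and exon 20 of *Col11a2* at chr17:34052464-34052517, all on the plus strand.
Col1a1: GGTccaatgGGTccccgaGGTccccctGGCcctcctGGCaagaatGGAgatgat
Col1a2: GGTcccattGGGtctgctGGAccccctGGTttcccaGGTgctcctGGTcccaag
Col3a1: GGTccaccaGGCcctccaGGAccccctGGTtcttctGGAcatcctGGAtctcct
Col11a2: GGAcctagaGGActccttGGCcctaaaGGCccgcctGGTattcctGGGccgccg

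The longest unbroken run of such triplets was 338 in *Col1a1*, 339 in *Col1a2*, 344 in *Col3a1* and 338 in *Col11a2*. It was 40 in *Col4a1*, 45 in *Col4a4* and 30 in *Col18a1*, chains of the basement membrane. Glycine codons made up 9.07% to 31.1% of the coding sequence of the collagens, with a median of 24.5%, against a median of 8.0% in the other 44 genes and 6.25% over the 10632 genes of the table with a coding sequence. Few stretches of the length of a ribosome-protected fragment were common to several chains. In all, 12 of the 77 genes shared any stretch of 26 coding bases, the shortest fragment size selected, with another of the 77, and the highest share of a gene's windows was 0.135%.

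Integrins bind fibronectin through the residues arginine, glycine and aspartate, and the codons for these residues are printed because *Fn1* gave more reads than any other of the 77 genes. The set in exon 30, at chr1:71606734-71606763 on the minus strand, is shown in capitals. A further set of such codons, in exon 40, is not printed.
Fn1: gtcactggcCGTGGGGACagtccagcaagc

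*Fn1*, *Itgb1*, *Hspg2*, *Lamb2* and *Sparc* were the 5 genes with most reads. *Fn1*, which encodes fibronectin, had 2121 and 1308 reads in the controls and 167 and 399 in *Eef1g*-cKO, that is 102 and 112 against 88.5 and 116 FPKM. The 2 genotypes overlapped. *Itgb1*, the beta chain shared by most integrins that bind matrix, stood at 69.4 and 92.7 FPKM in the controls and at 90.5 and 90.0 in *Eef1g*-cKO, and overlapped as well. *Lamb2*, the laminin beta2 chain, was at 30.6 and 32.6 FPKM in the controls and at 37.3 and 42.7 in *Eef1g*-cKO. These 3 genes carried enough reads in all libraries to be measured, with 145 to 566 *Eef1g*-cKO reads each. Their log2 fold changes in *Eef1g*-cKO over control were -0.07 for *Fn1*, 0.17 for *Itgb1* and 0.33 for *Lamb2* (standard error 0.23 each). The 95% limits were -0.63 and 0.48 for *Fn1*, -0.39 and 0.73 for *Itgb1*, and -0.25 and 0.90 for *Lamb2*. When the libraries were centred on their medians, the sign for *Fn1* turned (0.14).

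Summed over the 77 genes, the level was 3515 and 3672 RPM in the controls and 2389 and 2659 in *Eef1g*-cKO. Outside the 5 genes with most reads it was 1750 and 1745 in the controls and 965 and 978 in *Eef1g*-cKO. *Fn1* alone held 24.3% and 25.7% of these reads in the controls and 31.2% and 36.8% in *Eef1g*-cKO.

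**Figure D1:**
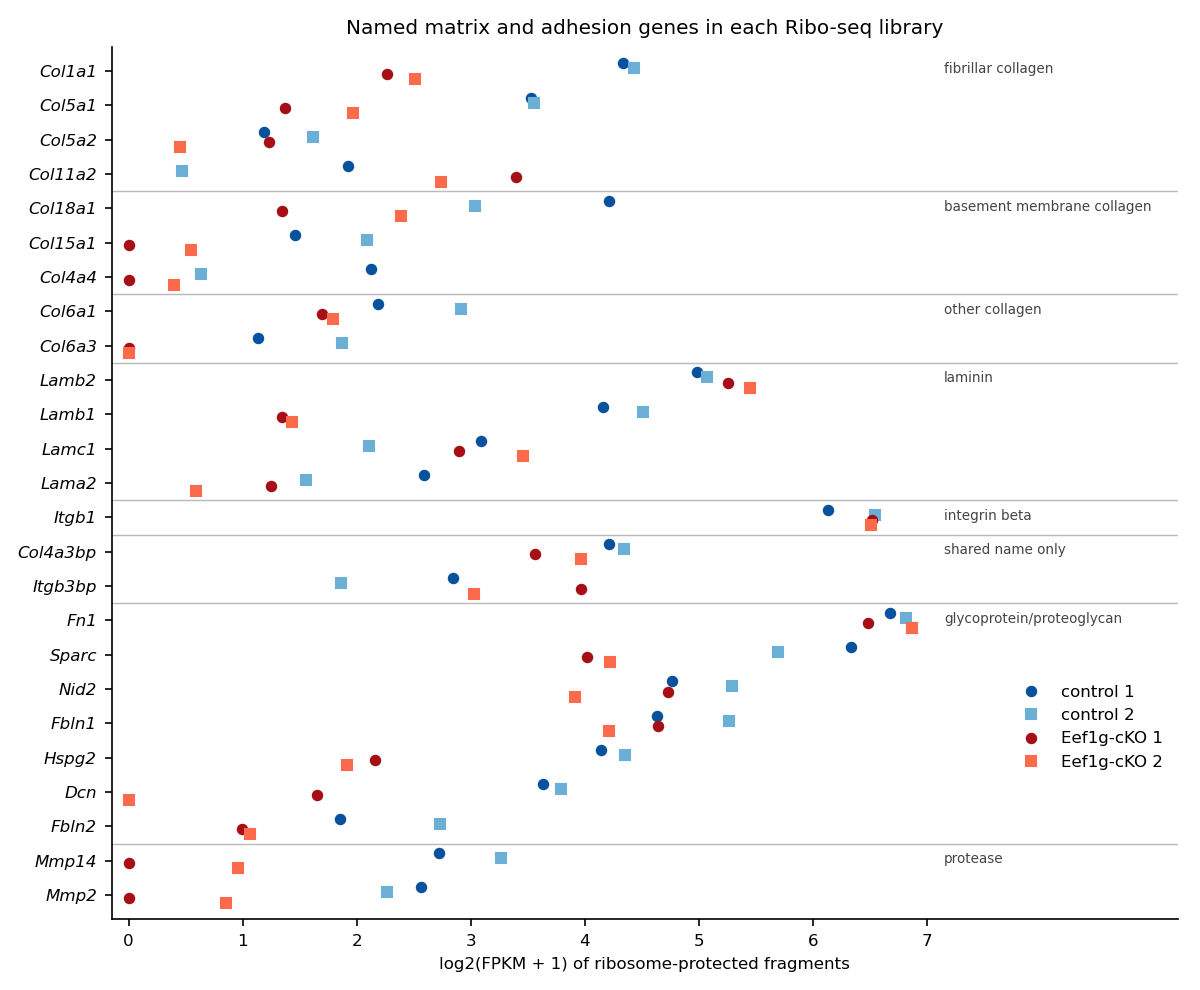
Level of 25 matrix and adhesion genes in each of the 4 Ribo-seq libraries, as log2(FPKM + 1), grouped by the role of the protein. *Fn1*, *Itgb1* and *Lamb2* lie close together in all libraries, while both *Eef1g*-cKO libraries of *Lamb1*, *Hspg2*, *Col1a1* and *Sparc* lie to the left of both control libraries, and *Col6a3* is at 0 in both.

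For the comparison of genotypes, limma was run on log2(FPKM + 1) over the 10475 genes whose mean reached 1 FPKM, and a call needed p under 0.05 and a log2 fold change beyond 1 in either direction. Of the 77 genes 55 passed that filter and 22 did not. By unadjusted p, 17 of the 55 were decreased (30.9%, against 16.3% of all genes tested) and 1 was increased (1.82%, against 7.32%). By adjusted p, 4 were decreased, *Lamb1*, *Hspg2*, *Col1a1* and *Sparc* (7.27%, against 4.97%), and 0 were increased (against 2.87%). The share by adjusted p was near that of all genes. The median log2 fold change of the 55 was -0.77, beside -0.23 over all genes tested, and none of the 55 was at 0 reads in both *Eef1g*-cKO libraries. Centring the libraries moved the median of all genes to -0.02 and that of the 55 to -0.55, with 3 increased and 11 decreased by unadjusted p. The shares of all genes called in that fit are not given here. Genes of low level pass the filter through the group in which they are higher, so these counts describe the 55 and lend no support to a direction of the 77. Over all 77, both *Eef1g*-cKO libraries lay below both control libraries for 41 (53.2%, against 39.0% of the whole table), above them for 12 (15.6%, against 22.5%) and overlapped for 24.

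On the recovered whole reads, edgeR's quasi-likelihood test kept 42 of the 77 genes. Its filter can also keep a gene of low level through the group in which it is higher. Its counts therefore lend no support to a direction of the 77 either. By adjusted p it called 11 decreased (26.2%, against 11.2% of all genes it tested) and 1 increased, *Col11a2* (2.38%, against 8.75%). The 11 were *Lamb1*, *Hspg2*, *Col1a1* and *Sparc*, which limma also called, and *Col3a1*, *Col5a1*, *Col6a3*, *Col4a2*, *Col18a1*, *Dcn* and *Mmp14*. Not every limma fit that left out a library kept a decrease by adjusted p. In each such fit the lone library is assumed to vary like the other genotype, whose pair alone gives the spread.

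**Figure D2:**
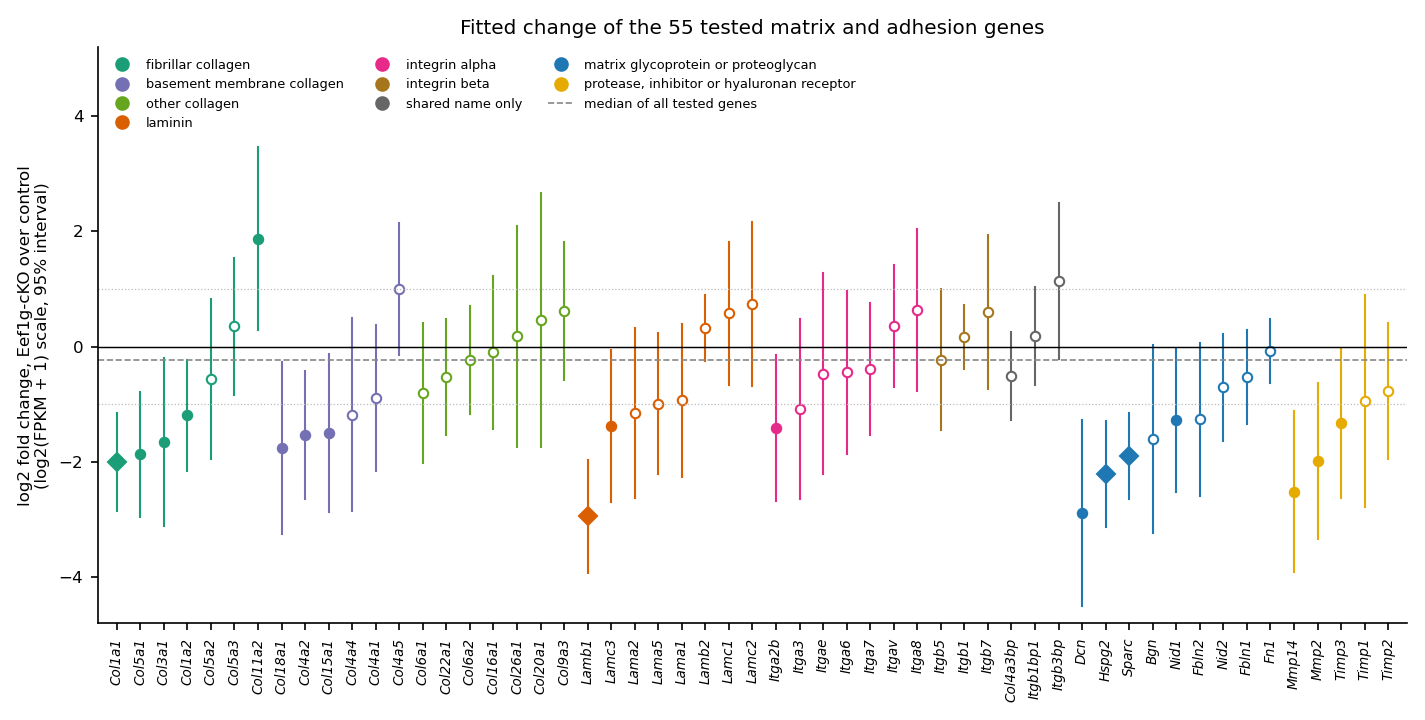
Log2 fold change of *Eef1g*-cKO over control for the 55 genes tested, on the log2(FPKM + 1) scale, with 95% intervals from limma, coloured by role. Filled points were called by unadjusted p, diamonds also adjusted, and the dashed line is the median of all genes tested, -0.23. *Col11a2* is the one filled point above 0.

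Among the fibrillar collagens *Col1a1*, *Col1a2*, *Col3a1* and *Col5a1* were decreased and *Col11a2* was increased. Of 9 chains 7 were tested, with 1 increased, 4 decreased and 2 not called by unadjusted p. Of all genes tested 7.32% were increased and 16.3% decreased. Of the 9, 4 were higher and 4 lower than both controls in each *Eef1g*-cKO library, beside 22.5% and 39.0% of the whole table. *Col1a1*, the alpha1 chain of type I collagen, had 223 and 134 reads in the controls and 4 and 9 in *Eef1g*-cKO. At 19.1 and 20.6 against 3.80 and 4.70 FPKM the groups lay well apart, with a difference of -2.0 on the log2 scale (limma adjusted p = 0.0365, standard error 0.35). *Col1a2*, its partner chain, was at 10.7 and 9.55 FPKM in the controls and at 3.47 and 4.29 in *Eef1g*-cKO, a change of -1.19 (standard error 0.39) that passed the unadjusted p only. *Col3a1* was at 8.12 and 9.22 FPKM against 4.01 and 0.881, and *Col5a1*, which helps to start fibrils, at 10.6 and 10.7 against 1.59 and 2.92. Both were decreased by unadjusted p, with log2 fold changes of -1.65 and -1.87. The other type V chains were not called. *Col5a2* had only 2 and 1 reads in *Eef1g*-cKO, and its groups overlapped. *Col5a3* was at 1.86 and 1.90 FPKM in the controls and at 2.20 and 3.22 in *Eef1g*-cKO, above both (log2 fold change 0.35, standard error 0.48).

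*Col11a2*, a chain of the cartilage collagen XI, ran the other way. It had 39 and 3 reads in the controls and 12 and 13 in *Eef1g*-cKO, that is 2.81 and 0.387 against 9.56 and 5.68 FPKM. Both *Eef1g*-cKO libraries lay above both controls, with a difference of 1.87 on the log2 scale (limma adjusted p = 0.119, standard error 0.65, edgeR adjusted p = 0.0288). The controls differed 7.26-fold between themselves, and without control 2 the change was 1.14 and was no longer called. *Col11a1* and *Col2a1*, its partners in cartilage, were also above control in both *Eef1g*-cKO libraries, but on 1 and 4 reads each, and neither entered the test.

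The chains of basement membrane collagens gave few reads. Of 7 chains 6 were tested, with 3 decreased (beside 16.3% of all genes) and 3 not called by unadjusted p. *Col4a2* was at 5.90 and 6.30 FPKM in the controls and at 1.39 and 1.53 in *Eef1g*-cKO (2 and 4 reads), a log2 fold change of -1.53 (standard error 0.45) called by unadjusted p. Its partner *Col4a1* was at 5.55 and 2.95 against 2.03 and 1.48 FPKM, with a change of -0.89 that was not called. Their genes lie head to head on opposite strands and share exon bases, as do those of *Col4a3* and *Col4a4*, and the counting is not stated to use strand, so reads there cannot be told apart. *Col18a1*, whose end is cleaved to endostatin, was at 17.6 and 7.24 FPKM in the controls and at 1.54 and 4.23 in *Eef1g*-cKO, and *Col15a1*, its closest relative, at 1.74 and 3.26 against 0 and 0.461. Both were decreased by unadjusted p. *Col4a5*, an X-linked type IV chain, was higher in both *Eef1g*-cKO libraries, at 6.19 and 5.29 against 3.04 and 1.78 FPKM, and was not called (log2 fold change 1.00, standard error 0.47).

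The remaining 17 collagens were scarce. Of them 7 were tested by limma and none was called, by unadjusted p or adjusted p, while edgeR called *Col6a3*. *Col22a1*, found where muscle meets tendon, was at 7.44 and 8.84 FPKM in the controls and at 4.37 and 6.40 in *Eef1g*-cKO, below both controls (log2 fold change -0.53, standard error 0.41). The other chains tested, besides *Col6a1* and *Col6a2* of type VI, had at most 29 reads in any library.

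*Hspg2*, which encodes the basement membrane proteoglycan perlecan, gave one of the clearest differences. It had 585 and 381 reads in the controls and 11 and 16 in *Eef1g*-cKO. The levels were 16.6 and 19.4 against 3.47 and 2.77 FPKM, with a difference of -2.21 on the log2 scale (limma adjusted p = 0.0352, standard error 0.37). The nidogens, which link laminin to type IV collagen, differed less. *Nid2* was at 26.3 and 38.2 FPKM in the controls and at 25.6 and 14.1 in *Eef1g*-cKO, a change of -0.71 (standard error 0.38) that was not called. *Nid1* was at 5.60 and 6.69 against 2.95 and 1.22 FPKM, on 4 and 3 *Eef1g*-cKO reads, and was decreased by unadjusted p (-1.27, standard error 0.51).

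Of 10 laminin chains 8 were tested, with 2 decreased (beside 16.3% of all genes) and 6 not called by unadjusted p. The beta chains differed. *Lamb1*, the beta1 chain, had 242 and 174 reads in the controls and 2 and 4 in *Eef1g*-cKO. Its 16.9 and 21.8 FPKM against 1.55 and 1.70 gave a difference of -2.94 on the log2 scale (limma adjusted p = 0.0296, standard error 0.40), the largest decrease among the 55 genes in this fit. *Lamb2*, the chain that takes its place in other laminin trimers, was not called and was above control in both *Eef1g*-cKO libraries, as given above. *Lamc1*, the gamma1 chain that joins either of them, was at 7.51 and 3.32 FPKM in the controls and at 6.45 and 9.97 in *Eef1g*-cKO, and the groups overlapped. Of the alpha chains, *Lama1*, *Lama2* and *Lama5* lay below both controls and were not called, with log2 fold changes between -1.15 and -0.93. *Lamc3* was decreased by unadjusted p, on 61 and 30 reads against 2 and 1.

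Of 10 integrin chains tested, 1 was decreased by unadjusted p, beside the 16.3% of all genes, too few chains to set apart from that share. It was *Itga2b*, the platelet alpha chain, at 7.74 and 7.57 FPKM in the controls and 1.30 and 3.57 in *Eef1g*-cKO. *Itgav*, the alpha chain of the vitronectin receptors, was at 3.49 and 4.71 against 5.06 and 5.91 FPKM, and *Itga6*, a laminin receptor chain also found on spermatogonia, at 7.37 and 3.48 against 2.23 and 5.29. Neither was called. In summed RPM the integrin beta chains stood at 328 and 423 in the controls and at 397 and 404 in *Eef1g*-cKO, nearly all of it *Itgb1*. The alpha chains stood at 148 and 141 against 89.3 and 120. *Itgb3bp*, which shares only the name and encodes a kinetochore protein, was at 6.19 and 2.64 against 14.7 and 7.16 FPKM. *Col4a3bp*, the ceramide transfer protein, was at 17.5 and 19.3 against 10.8 and 14.6 FPKM. Neither was called.

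Of the 9 glycoproteins and proteoglycans all were tested, with 4 decreased by unadjusted p (beside 16.3% of all genes), *Hspg2*, *Nid1*, *Dcn* and *Sparc*. *Sparc*, a calcium-binding glycoprotein that binds collagen, had 522 and 186 reads in the controls and 9 and 19 in *Eef1g*-cKO. The levels were 79.7 and 50.9 against 15.2 and 17.6 FPKM, with a difference of -1.90 on the log2 scale (limma adjusted p = 0.0333, standard error 0.30). *Dcn*, the small proteoglycan decorin, went from 59 and 37 reads to 1 and 0. *Fbln1*, a glycoprotein of elastic fibres and basement membranes, was at 23.9 and 37.4 against 23.9 and 17.5 FPKM. Its groups overlapped and it was not called. Of the proteases, inhibitors and the hyaluronan receptor 5 of 6 were tested and 3 were decreased by unadjusted p (beside 16.3% of all genes). They were *Mmp14*, *Mmp2* and the inhibitor *Timp3*, all close to 0 reads in *Eef1g*-cKO. *Mmp14*, a membrane-bound collagenase, had 36 and 31 reads against 0 and 1, and *Mmp2*, the gelatinase that it activates, 37 and 16 against 0 and 1. Of the 3206 exon bases of *Mmp2*, 612 overlap a gene on the other strand.

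At these depths, many of the 77 genes allow only a bound. In *Eef1g*-cKO, 38 had at most 3 reads in each library, 29 had 1 to 3 reads over both, and 5 had none, while 15 had 20 or more. A gene with 0 reads in both *Eef1g*-cKO libraries can still have had up to 3 over the group, or 4.75 RPM. *Col6a3*, the longest chain of type VI collagen, had 32 and 40 reads in the controls and 0 and 0 in *Eef1g*-cKO. It was at least 3.92-fold lower than the pooled controls, at least 2.72-fold lower than control 1 alone and at least 6.09-fold lower than control 2 alone. These bounds leave out the counting error of the controls. The others without a read were *Col6a6*, *Cd44*, *Col13a1* and *Col8a2*. Their 11 to 19 control reads lay under or close to the same limit, so no fold is given. The partners of *Col6a3* were still seen. *Col6a1* had 35 and 36 reads in the controls and 2 and 4 in *Eef1g*-cKO, and *Col6a2* had 101 and 58 against 6 and 18, at 10.9 and 11.2 against 7.19 and 11.8 FPKM with overlapping groups.

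Where a few reads remained, the ratio of pooled RPM carries a wide interval. *Dcn* stood at 0.0637 of control (0.00160 to 0.363), *Mmp14* at 0.0913 (0.00228 to 0.526) and *Mmp2* at 0.115 (0.00287 to 0.671). *Lamb1*, with 6 reads, stood at 0.0882 (0.0322 to 0.194) and *Hspg2*, with 27, at 0.171 (0.112 to 0.250). For *Lamb1* even the upper limit lies under the point estimates for *Sparc* (0.242, 0.160 to 0.353) and *Col1a1* (0.223, 0.117 to 0.386). Over the 72 genes with at least 1 *Eef1g*-cKO read, the interval of this ratio lay below 1 for 28 (38.9%, against 23.6% of all genes with such a read) and above 1 for 10 (13.9%, against 19.6%). Of the 17 genes decreased by unadjusted p, 6 had at most 3 reads in each *Eef1g*-cKO library, *Col15a1*, *Dcn*, *Lamc3*, *Mmp14*, *Mmp2* and *Timp3*, so the size of their fitted change rests on the pseudocount of 1 FPKM and is neither a measured fold nor a bound.

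The 2 control libraries were not alike, and were therefore read separately. Of the 49 genes with at least 30 control reads, the ratio of control 1 to control 2 had an interval above 1 for 11 (22.4%, against 16.3% of all genes with that many reads), below 1 for 10 (20.4%, against 24.9%) and holding 1 for 28. Control 1 was at least 2-fold higher for 8 (16.3%, against 7.40%) and control 2 for 2 (4.08%, against 5.70%). The spread of the counts between the controls was 5.69 times that of counting alone over the 74 of the 77 genes with at least 10 control reads, and 11.8 times over the whole table. Between the *Eef1g*-cKO libraries it was 1.28 times over 24 of the 77 and 1.81 times over the whole table. This measure grows with the number of reads, and the *Eef1g*-cKO libraries were far shallower. It therefore does not show which genotype had the more alike libraries.

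Genes of the basement membrane lay on both sides. *Col4a4* had 65 and 6 reads, a ratio of 6.05 (2.63 to 17.1). *Lama2*, the laminin alpha2 chain, had 121 and 26 reads and a ratio of 2.60 (1.69 to 4.14), *Col18a1* 2.43 (1.82 to 3.29), *Lamc1* 2.27 (1.56 to 3.38), and *Lama1* and *Col4a1* 1.94 and 1.88. *Sparc* was also higher in control 1, by 1.57 (1.32 to 1.86). Higher in control 2 were *Col6a3* (2.24-fold, 1.37 to 3.68), *Fbln2* (2.16-fold, 1.28 to 3.67), *Col15a1*, *Col6a1*, *Fbln1* and *Nid2*, with *Itgb1*, *Lamb1*, *Hspg2* and *Fn1* at 1.10-fold to 1.33-fold. The type I and III collagens sat between, with ratios of 0.929 for *Col1a1*, 1.12 for *Col1a2* and 0.881 for *Col3a1*, all holding 1.

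**Figure D3:**
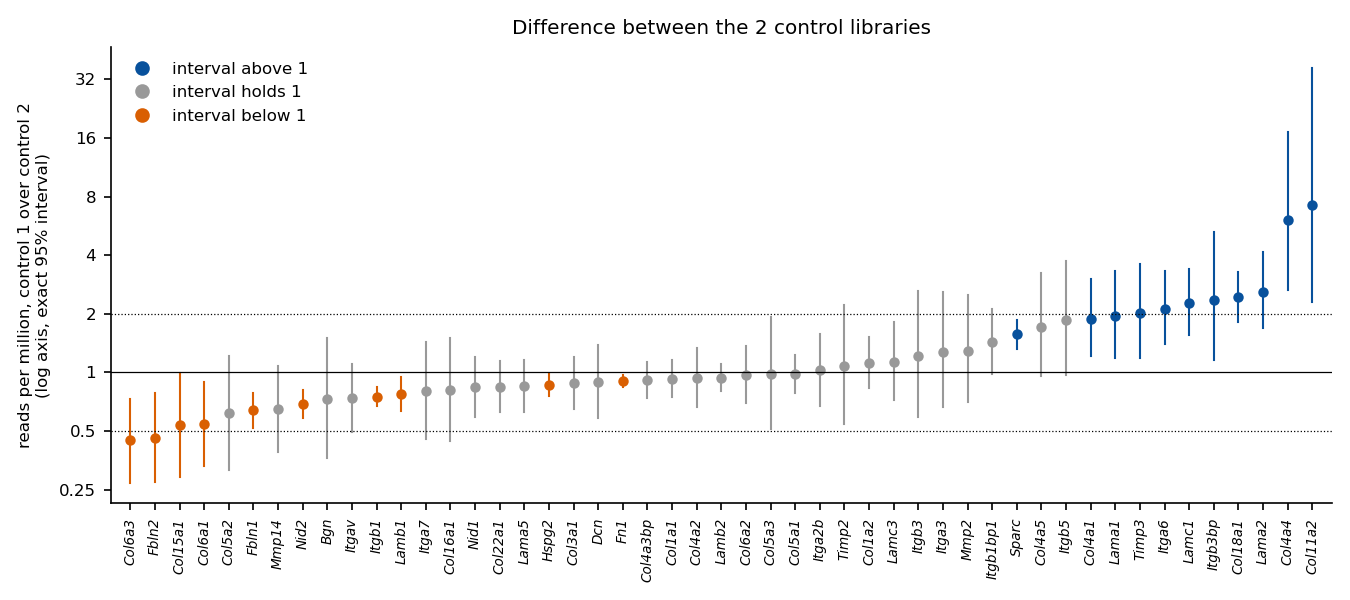
Ratio of RPM (reads scaled to library total) in control 1 to control 2 for the 49 genes with at least 30 reads over both, with exact 95% intervals for counting error, on a log axis; dotted lines mark 2-fold. *Col4a4* and *Col11a2* lie highest, at 6.05 and 7.26, and *Col6a3* and *Fbln2* lie lowest.

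Markers of Sertoli cells also differed between the controls. Of 18 listed, 14 were in the table, at a summed 1870 RPM in control 1 and 738 in control 2, with *Clu* at 828 and 174 and *Cldn11* at 54 and 11.6. In *Eef1g*-cKO the sum was 942 and 748, between the controls, and *Gata4* had no read in either library. Over the 14 the median log2 fold change was -1.32, with both *Eef1g*-cKO libraries below both controls for 9 and above them for 0. Over the whole table these shares were 39.0% and 22.5%. By unadjusted p limma called 3 decreased and 0 increased, beside 16.3% and 7.32% of all genes tested. By adjusted p edgeR called 4 of 9 decreased, beside 11.2% of all genes it tested. Peritubular myoid markers, 8 of 10 in the table, stood at 160 and 142 in the controls, and fibroblast and stromal markers, 9 of 12, at 171 and 196. The part of these cells in the ratios was not tested.

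*Eef1g*-cKO was also set against each control alone, with the same pooled *Eef1g*-cKO reads in both ratios. The interval lay below 1 for 24 of the 72 genes against control 1 (33.3%, against 21.6% of all genes) and for 24 against control 2 (33.3%, against 24.5%). It lay below 1 against both for 17 (23.6%, against 15.9%). *Lamb1* stood at 0.0973 of control 1 (0.0354 to 0.215) and at 0.0755 of control 2 (0.0273 to 0.168). *Hspg2* stood at 0.181 and 0.155, *Col1a1* at 0.229 and 0.213, *Col5a1* at 0.232 and 0.228, and *Sparc* at 0.210 and 0.330, each with an interval below 1 against both. For *Col4a4* the ratio was 0.0604 against control 1 (0.00151 to 0.348) but 0.365 against control 2 (0.00794 to 3.01), and for *Lama2* 0.162 (0.0517 to 0.389) and 0.421 (0.126 to 1.11). *Lamc1* was at 1.16 of control 1 (0.802 to 1.65) and at 2.63 of control 2 (1.64 to 4.24). The interval lay above 1 against both controls for 4 genes (5.56%, against 14.0%), *Col11a2*, *Col4a5*, *Col20a1* and *Lamb2*. Of these, *Col20a1* had 0 and 8 *Eef1g*-cKO reads, so its ratio rested on 1 library and its groups overlapped. *Col11a2* stood at 2.52 of control 1 (1.46 to 4.26) and at 18.3 of control 2 (5.57 to 94.5).

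**Figure D4:**
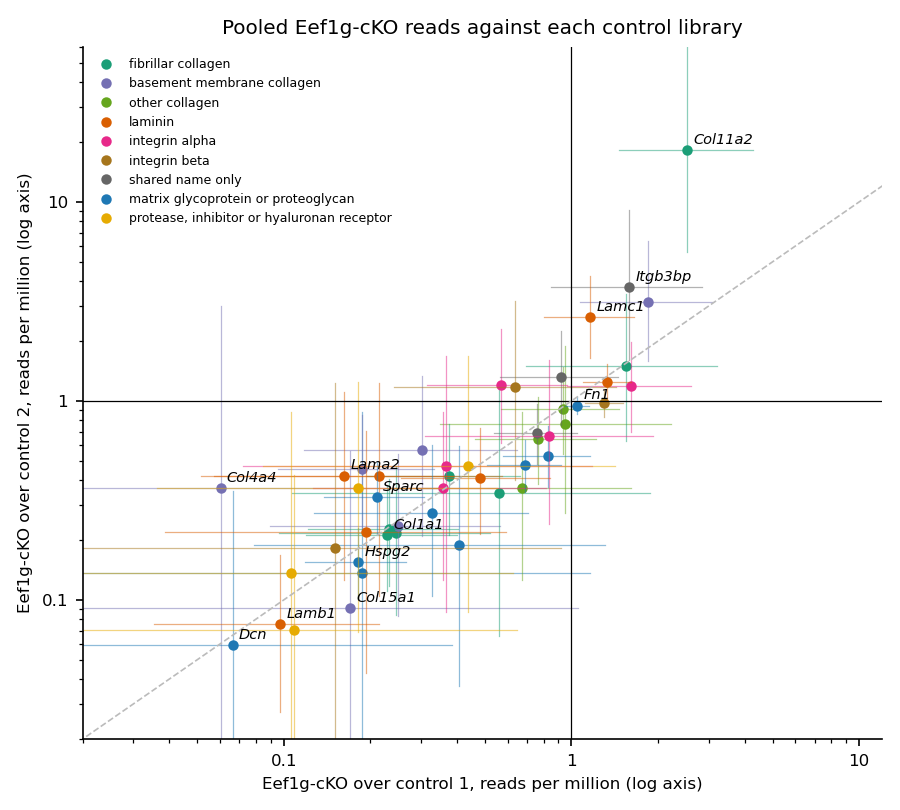
Pooled *Eef1g*-cKO RPM over control 1 (horizontal) and over control 2 (vertical) for the 48 genes with at least 30 control reads and at least 1 *Eef1g*-cKO read, on log axes, with exact 95% intervals that run past the frame for genes with few reads. Points on the dashed line have the same ratio to both controls; *Lamb1*, *Hspg2*, *Col1a1* and *Sparc* lie near it below 1, while *Col4a4*, *Lama2* and *Col11a2* lie off it.

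Comparing 2 genes inside the same library removes the depth of that library. The pairs were chosen with the results known. In those of this paragraph the first gene was called decreased by adjusted p and the second was not called. Their separation therefore restates the same reads and is no further support. The ratio of *Lamb1* to *Lamb2* per length was 0.552 (0.469 to 0.647) in control 1 and 0.667 (0.547 to 0.812) in control 2, against 0.0414 (0.00487 to 0.158) and 0.0397 (0.0106 to 0.105) in *Eef1g*-cKO. None of the *Eef1g*-cKO intervals reached a control interval. *Col1a1* to *Fn1* gave 0.189 and 0.184 in the controls and 0.0430 and 0.0405 in *Eef1g*-cKO, again with no overlap of the intervals. *Sparc* to *Fn1* gave 0.785 and 0.454 against 0.172 and 0.152, and *Hspg2* to *Nid2* 0.634 and 0.509 against 0.135 and 0.197.

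For other pairs the genotypes could not be separated. Type I collagen is built from a pair of alpha1 chains and a single alpha2 chain, and *Col1a1* to *Col1a2* was 1.80 (1.44 to 2.24) and 2.16 (1.60 to 2.93) in control. In *Eef1g*-cKO it was 1.09 in both libraries, with intervals of 0.204 to 5.88 and 0.385 to 3.11 that hold the control values. *Itgav* to *Itgb1* was 0.0502 and 0.0508 in the controls and 0.0560 and 0.0656 in *Eef1g*-cKO, with overlapping intervals. *Lamc1* to *Lamb2* was 0.245 and 0.102 in control, where the intervals did not overlap, and 0.173 and 0.233 in *Eef1g*-cKO. The table's gene length includes untranslated exons (5778 bases for *Lamb1*, of which 5361 are coding), which scales a pair alike in every library.

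**Figure D5:**
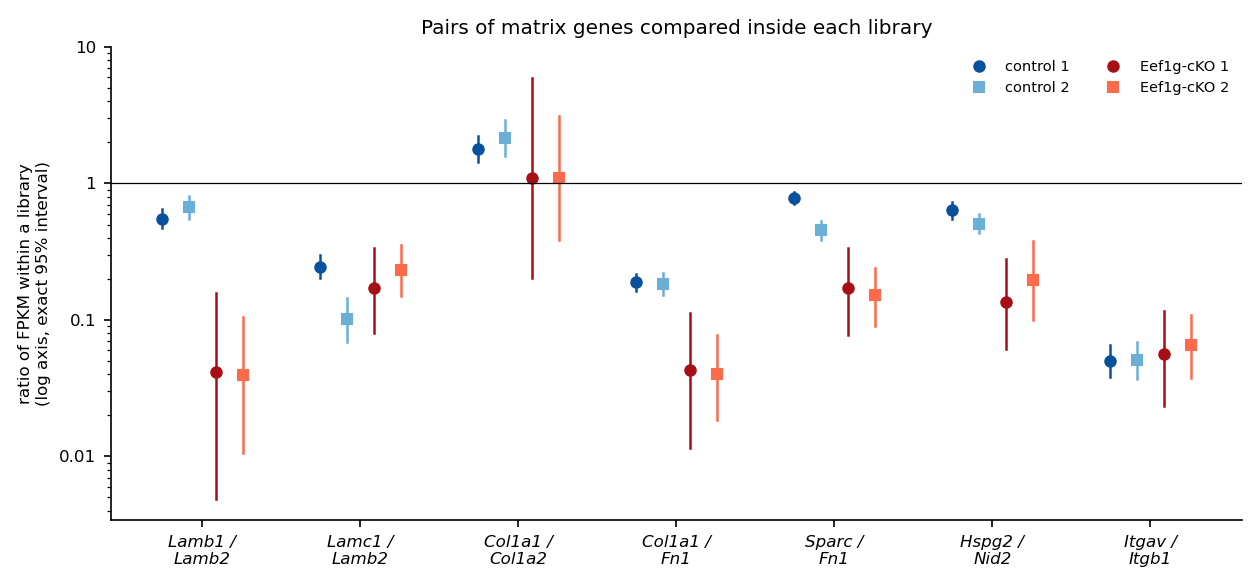
Ratio of FPKM of 2 genes inside each library, on a log axis, with exact 95% intervals for counting error. *Lamb1* to *Lamb2* and *Col1a1* to *Fn1* are lower in both *Eef1g*-cKO libraries without overlap, *Itgav* to *Itgb1* is alike in all 4, and *Lamc1* to *Lamb2* differs between the controls.

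Genes that act on these proteins were counted from the same fit. Of the enzymes and chaperones of collagen synthesis and secretion, 23 of 34 listed were in the table and 19 were tested. By unadjusted p 3 were increased and 4 decreased, beside 7.32% and 16.3% of all genes. By adjusted p limma called 2 increased, beside 2.87% of all genes, and 0 decreased, beside 4.97%. By adjusted p edgeR, which tested 17, called 3 increased (17.6%, beside 8.75% of all genes) and 1 decreased (5.88%, beside 11.2%). The 2 that limma called were *P4hb*, a prolyl hydroxylase subunit that is also a protein disulfide isomerase, and *Lepre1*, a collagen prolyl hydroxylase. *P4hb* was at 1160 and 1396 RPM in the controls and 4770 and 4253 in *Eef1g*-cKO, and *Lepre1* at 108 and 86.0 against 299 and 304. The collagen chaperone *Serpinh1* and the procollagen protease enhancer *Pcolce* were decreased by unadjusted p, on 0 and 3 and on 1 and 0 *Eef1g*-cKO reads. Among integrin adaptors, 26 of 34 were tested, with 7 decreased by unadjusted p (beside 16.3% of all genes) and 0 by adjusted p in limma. In edgeR, which tested 27, 3 were decreased by adjusted p (11.1%, beside the 11.2% of all genes) and 1 was increased (3.70%, beside 8.75%). The 7 included *Tln1*, the talin that links integrins to actin, at 179 and 194 against 80.4 and 36.8 RPM. Of 61 further matrix genes 35 were tested, with 10 decreased by unadjusted p (beside 16.3% of all genes). None was increased by limma or, by adjusted p, edgeR. The 3 decreased by adjusted p in limma (beside 4.97% of all genes) were *Fbn2*, *Sdc1* and *Sdc4*, a fibrillin and a pair of syndecans. Of the 22 that edgeR tested, 4 were decreased by adjusted p (18.2%, beside 11.2% of all genes). *Sdc1* was at 76.6 and 145 RPM in the controls and at 13.4 and 14.7 in *Eef1g*-cKO.

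Besides those of Sertoli cells, markers of other cell types were summed in each library. The sums for spermatogonia, peritubular myoid cells and endothelial cells were lower in both *Eef1g*-cKO libraries. Those for stroma, Leydig cells and macrophages overlapped between the genotypes. All 16 spermatogonial markers were in the table, at a summed 3312 to 3979 RPM in the controls and 1017 to 1050 in *Eef1g*-cKO. Of them 12 were decreased by unadjusted p, beside 16.3% of all genes. Peritubular myoid markers summed to 142 to 160 in the controls and 80.4 to 90.7 in *Eef1g*-cKO, with *Synpo2* at 0 in both *Eef1g*-cKO libraries. Fibroblast and stromal markers summed to 171 to 196 against 121 to 172, with *Nr2f2* and *Serping1* at 0. Of the 7 tested 4 were decreased and 1, *Ptch1*, was increased by unadjusted p, beside 16.3% and 7.32% of all genes. Endothelial markers, 6 of 12 in the table, summed to 23.8 to 31.1 against 17.2 to 17.9, with *Cldn5* and *Esam* at 0. With 1 read worth 4.47 RPM in *Eef1g*-cKO 1 and 2.45 in *Eef1g*-cKO 2, these endothelial sums rest on a few reads. No interval was computed for them, so their difference is not set apart from counting error. Leydig cell markers, 5 of 10, summed to 27.5 to 29.8 against 29.4 to 31.3, with *Cyp11a1* and *Hsd3b1* at 0, and *Cd14*, the 1 macrophage marker of 12, to 1.61 to 4.33 against 0 to 2.45. The markers given at 0, and *Gata4* above, were named because neither *Eef1g*-cKO library held a read of them. Each can still have had up to 3 reads over the group, or 4.75 RPM, so no loss is read from them. The part of spermatogonia or somatic cells in the lower matrix genes was not tested.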

How the data were processed

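Ribosome-protected fragments of 2 control and 2 *Eef1g*-cKO libraries were read from the 1 table that the authors deposited. It holds FPKM, which the authors scaled to gene length and counted reads, and normalized counts, a deposited signal that equals reads over a library's size factor. Per the labels, cutadapt, Bowtie, STAR, mm10 and hg38 were used; the read counter, the annotation and the strand setting are not given in the sources used here. The authors' own fold changes and p-values were not used.

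Whole reads were recovered from the normalized counts (100% of values). limma 3.58.1 (R 4.3.3, trended prior) was run on log2(FPKM + 1) for genes whose mean reached 1 FPKM, with Benjamini-Hochberg adjustment over 10475 genes. edgeR 4.0.16 and DESeq2 1.42.0 on the recovered reads were alternatives, and edgeR called 705 genes increased and 904 decreased of 8056. With 2 libraries against 2, an exact permutation test cannot go below p = 0.333. Ratios of reads have exact (Clopper-Pearson) 95% intervals. With 0 reads in both *Eef1g*-cKO libraries, the bound is against 3 reads over the group. The fits were run on simulated data in which only genes with a mean of at least 20 reads were changed. All genes there had the same dispersion, so the simulation did not cover genes with few reads. Alternatives were other pseudocounts, filters, scalings, priors and read depths, a replicate block and leaving out each library. Genes and lists were chosen with earlier results of these data known. Named genes are those past the adjusted p, the 12 with most reads, the 8 largest changes each way with at least 20 reads and an unadjusted p under 0.05, the 6 highest and 6 lowest control ratios, those at 0 reads in *Eef1g*-cKO with at least 30 in control, and partner chains; others named were chosen after their values were seen. Symbols matched RefSeq GRCm38.p6, 76 directly and 1 by an older name, and 22 of the 77 share exon bases with another gene.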

Additional observations from a re-analysis of the deposited data

How the results depend on the processing

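The counts in this section are given without the share of all genes called in the same fit. They show how the calls depend on the processing and not a change particular to these genes. The count of genes decreased by unadjusted p (17) was 8 with a pseudocount of 5 FPKM, 9 with a minimum mean of 5 FPKM, 11 with centred libraries and 11 after thinning every library to an equal number of reads. It ranged from 8 to 16 when a library was left out. The count increased (1) was 0 with pseudocounts of 0.1 and 5, a minimum of 5 FPKM and thinning, 2 without a trend in the prior variance and with edgeR, and 3 with centred libraries. It ranged from 0 to 2 when a library was left out. The count decreased by adjusted p (4) was 0 with a pseudocount of 0.1, without the trend and with thinning, 7 with a pseudocount of 5, 11 with edgeR and 6 with DESeq2, and ranged from 0 to 10 when a library was left out. The count increased by adjusted p (0) was 1 with edgeR and ranged from 0 to 1 when a library was left out. The median log2 fold change (-0.77) was -1.07 with a pseudocount of 0.1, -0.37 with 5, -0.55 with centred libraries, -1.20 with edgeR and -1.06 with DESeq2. Over all genes in the same fits the median (-0.23) was -0.28, -0.13, -0.02, -0.05 and -0.27, in that order. The edgeR median is over 42 of the 77 genes and that of DESeq2 over all 77. These medians are therefore not of the same genes as those of the 55.

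Same-numbered libraries did not deviate together (r = -0.00804 over 10475 genes). With the replicate number as a block, 2 genes were increased and 13 decreased by unadjusted p, and 0 and 6 by adjusted p.

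The log2 fold change of *Fn1* turned from -0.07 to 0.14 with centred libraries, 0.28 with thinning, 0.024 with edgeR and 0.010 with DESeq2, and ranged from -0.27 to 0.12 when a library was left out. That of *Itgb1* ranged from -0.038 to 0.37 when a library was left out, turning without control 1, and with thinning that of *Lamb2* was -0.025, of *Lamc1* -0.29 and of *Col4a3bp* 0.98. That of *Eef1g* (-3.39) was no longer called with a pseudocount of 0.1 (-5.10), with thinning (-2.79) or without either control, and ranged from -4.82 to -1.96 when a library was left out. *Hspg2* was not called with thinning (-1.07). By unadjusted p the call was also lost in 6 alternatives for *Col15a1*, in 5 each for *Mmp2* and *Col11a2*, and in 2 each for *Col18a1*, *Col5a1*, *Dcn* and *Mmp14*. *Col1a1*, *Lamb1* and *Sparc* stayed on the same side of the threshold by unadjusted p in every alternative run. The thinned fit behind the counts and values above rests on a single random draw. Random thinning keeps a gene's share of the reads on average. *Col4a3bp* stood at 94.0 and 103 RPM in the controls and at 58.1 and 78.4 in *Eef1g*-cKO, so its thinned value is far from its reads. No thinned value or count is therefore read as an effect of depth. In fits without a library, the lone one of its genotype is assumed to vary like the other pair. The other causes were not tested. Depth limits the genes with few *Eef1g*-cKO reads, and replicate spread beyond counting, seen between the controls, is not in the intervals of read ratios.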
